A study of Mus musculus with 20 samples.

Results

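Glioma macrophages of different origin were sorted from the same tumours of a genetically engineered mouse model (GEMM), and the comparison described here sets bone-marrow-derived macrophages (BMDM) against microglia (MG). It uses 6 of the 20 libraries of the series, the BMDM and MG libraries numbered 68702, BB30101 and BB30105, and takes the libraries that share a number as 1 tumour. The design text in the labels describes matched microglia and macrophages from 3 tumours. Both were sorted as CD45+ and CD11b+ cells that lacked Ly6C and Ly6G, BMDM as GFP+ without TdTomato, and MG as TdTomato+ without GFP. All donors were C57BL/6 mice with Flt3:Cre and Rosa26:mTmG. At 6 weeks of age they were injected in the frontal cortex with DF1 cells, a chicken fibroblast line, as an equal mix of RCAS-PDGFB-HA and RCAS:shP53 producers. BMDM and MG thus shared the animal, the PDGFB and shP53 vectors, the perfusion, the enzymatic dissociation and the removal of myelin, and neither set comes from a brain without a tumour. The sources used here do not give the age at harvest.

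Microglia descend from yolk sac progenitors that settle in the brain before birth and renew themselves there, whereas BMDM come from blood monocytes that enter a tumour. Flt3 is switched on in progenitors of adult blood formation and not in the line that gives microglia. In mTmG mice every cell is red until Cre removes the red reporter and turns on the green one. A cell of bone marrow origin in which Cre did not act would be red and would sort as MG, and the gate names no marker that removes dendritic cells, natural killer (NK) cells or eosinophils from either population. In gliomas both populations are counted together as tumour-associated macrophages, which are known for feeding growth factors to the tumour, remodelling its vessels and matrix, and shaping the T cell response.

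Values are CPM, the deposited gene counts scaled to library size by TMM, and 3 values in a row stand for tumours 68702, BB30101 and BB30105. Total counts were 30048409 to 32913488 in BMDM and 23064781 to 36297826 in MG. A gene is called when its Benjamini-Hochberg adjusted p from edgeR's quasi-likelihood test is under 0.05, over 15363 genes tested in a fit of all 20 libraries. Log2 fold changes are BMDM over MG with their standard error (SE), and n = 3 libraries per group throughout. No label names the mouse behind a number, and p-values cover no more than the spread among these libraries. The BMDM library of 68702 stood apart in its summed neutrophil markers, at 1926 CPM, against 111 and 13.8 CPM in the other BMDM libraries, and the results that rest on it are given with and without it. In bulk RNA, fewer cells of a type and less RNA per cell cannot be told apart.

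Genes of the gate and of each lineage were examined first. Ptprc, which encodes CD45, was at 1281, 1165 and 1180 CPM in BMDM, against 706, 518 and 599.5 CPM in MG, so its BMDM values all stood above its MG values (log2 0.99 ± 0.29, adjusted p = 0.0219). That call was lost without any 1 of the 6 libraries, with adjusted p between 0.0549 and 0.124. Itgam, which encodes CD11b, was at 579, 401 and 578 CPM in BMDM, against 2040, 1193 and 1821 CPM in MG, and here the BMDM values were all below (log2 −1.7 ± 0.4, adjusted p = 0.00499). Ly6c2, which encodes part of the Ly6C antigen used to gate cells out, reached only 5.42, 3.52 and 7.31 CPM in BMDM, against 0.788, 0.233 and 1.42 CPM in MG, and averaged 1063 ± 193 CPM in Ly6C-high blood monocytes of the series (SD, n = 5). The values of Ly6c1 overlapped at 2.02, 1.37 and 4.12 CPM in BMDM, against 1.23, 2.51 and 6.07 CPM in MG, and the gene was not called (log2 −0.38 ± 0.61, adjusted p = 0.707). Reads of these near-identical Ly6 genes may be shared. Flt3, whose promoter drives the Cre, was at 102, 253 and 211 CPM in BMDM, against 3.25, 16.1 and 2.83 CPM in MG, with no overlap (log2 4.65 ± 0.84, adjusted p = 0.000687). Itga4, the integrin chain CD49D, was at 94.4, 102 and 117 CPM in BMDM, against 5.22, 8.74 and 3.32 CPM in MG, with every BMDM value above. Sall1 and P2ry12, genes of microglia described below, ran the other way.

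Over all genes, 1949 (12.7%) were higher and 1245 (8.1%) lower in BMDM. Each list count given below is to be read beside these shares. Ignoring the test, 20.9% of all genes had each BMDM value above each MG value, and 19% had each below. Of the called genes, 1851 and 1202 had groups that did not overlap, and 1003 and 536 moved at least 2-fold in the same direction in all 3 tumours. Fold sizes were often small: 676 of the higher and 445 of the lower genes differed by less than 2-fold, and 809 and 362 by 4-fold or more. The share of calls that were higher, 61.0%, depended on the scaling, and was 54.1% with DESeq2's size factors in edgeR and 50.9% with DESeq2. A block for the tumour number, in the 12 libraries of both tumour models, gave 2179 higher and 1496 lower genes. Without the MG library of BB30105 the counts were 1105 and 1028, without that of 68702 they were 1125 and 1035, and without the BMDM library of BB30101 they were 1279 and 722. Without MG of BB30101 they were 1479 and 1252, without BMDM of 68702 1503 and 1399, and without BMDM of BB30105 1569 and 1046. A block over the 6 GEMM libraries alone gave 2298 and 1695. List counts under these settings come from the same fits, so part of their movement is shared by all genes.

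**Figure D1:**
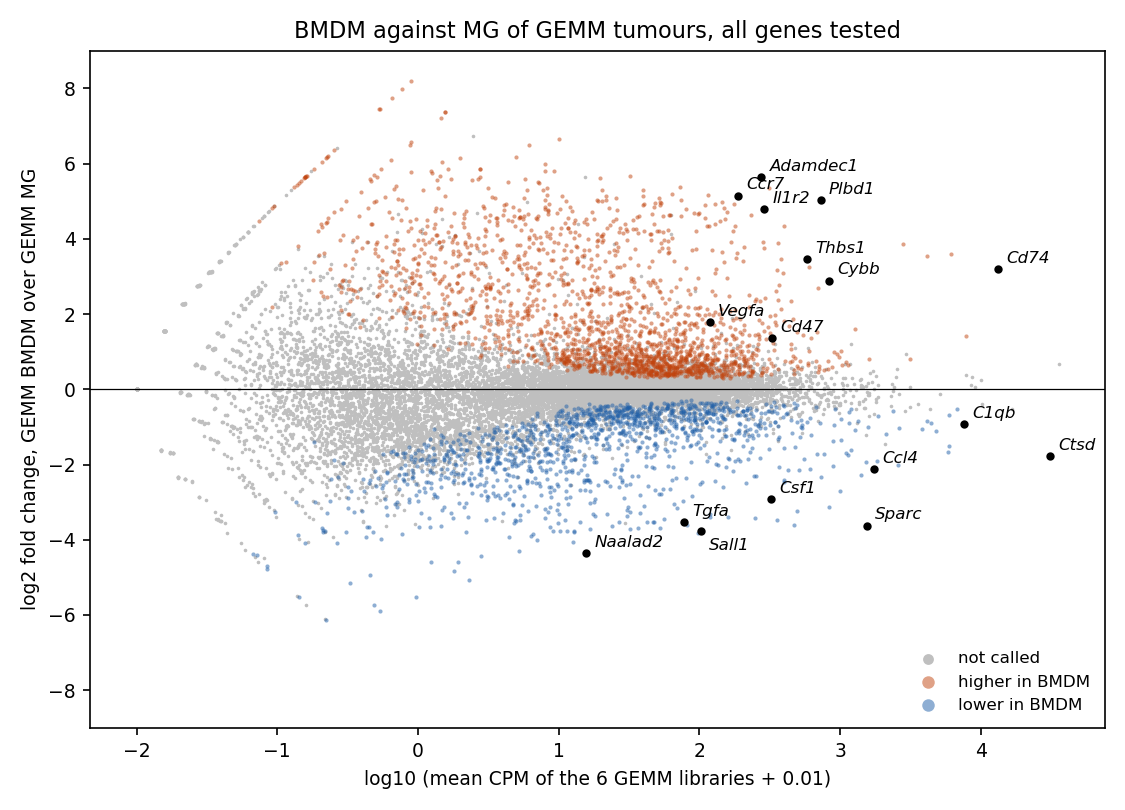
Each point is 1 of 15363 genes, placed by its mean CPM over the 6 GEMM libraries (horizontal, log10) and its log2 fold change of BMDM over MG (vertical), with called genes in colour. Cd74 and Ctsd lie far to the right, at log2 3.20 and −1.78, while Adamdec1 at 5.64 and Naalad2 at −4.35 sit at lower levels.

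Genes were ranked by fold change among called genes with a mean of 20 CPM or more in a group, no overlap and at least 2-fold in each tumour. The 12 such genes with the largest rise were between 32.97-fold and 49.9-fold higher in BMDM. Adamdec1, a metalloprotease of the ADAM family known from macrophages and mature dendritic cells (chromosome 14, 68563387 to 68582072 in GRCm38.p6), was at 1033, 521 and 69.6 CPM in BMDM, against 12.1, 18.8 and 1.46 CPM in MG. Each BMDM value was above each MG value, although the level itself ran over a wide range among the BMDM libraries (49.9-fold higher, log2 5.64 ± 1.08, adjusted p = 0.00121). Klrk1, the activating receptor NKG2D, was at 54.5, 154 and 165 CPM in BMDM, against 1.18, 7.9 and 0.708 CPM in MG (log2 5.2 ± 0.72, adjusted p = 6.13e-05). Klra2, a Ly49 family lectin, was at 105, 48.6 and 78.4 CPM in BMDM, against 1.92, 2.88 and 0.93 CPM in MG (log2 5.31 ± 0.7, adjusted p = 4.13e-05). MG of BB30101 held the highest MG value of each gene. Klrk1 is known best from NK cells. In the Ly6C-high blood monocytes of the series Klra2 averaged 173 ± 47.2 CPM and Klrk1 32.9 ± 12.7 CPM (SD, n = 5). Ocstamp is known as a gene of cell fusion into osteoclasts and giant cells (34.9-fold higher, log2 5.13 ± 0.73, adjusted p = 7.47e-05). Hic1, a transcriptional repressor, was at 76.9, 96.8 and 126 CPM in BMDM, against 1.97, 5.24 and 1.33 CPM in MG (34.3-fold higher, log2 5.1 ± 0.62, adjusted p = 1.74e-05). Ccr7, Cd209a, Cd7, Amica1, Ccl22, Gapt and Gpr141 complete the 12, all between 32.97-fold and 39.7-fold higher. Amica1 encodes the adhesion molecule JAML of migrating leukocytes, and Cd209a a lectin of the DC-SIGN family. In 11 of these 12 genes the MG library of BB30101 held the highest of the 3 MG values, as it did for 336 of 475 (70.7%) genes that met the same conditions. Its part in the results was not tested.

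Under the same conditions the 12 genes with the largest fall were between 12.3-fold and 20.4-fold lower in BMDM. Naalad2, a peptidase related to the enzyme that cleaves N-acetylaspartylglutamate (chromosome 9, 18321951 to 18397538 in GRCm38.p6), was at 0.615, 0.87 and 2.88 CPM in BMDM, against 37.3, 17.2 and 35.1 CPM in MG, with no overlap (20.4-fold lower, log2 −4.35 ± 0.64, adjusted p = 0.000105). Slc2a5, the fructose transporter GLUT5 and a known microglial gene, was at 3.72, 4.52 and 30.1 CPM in BMDM, against 201, 94 and 249 CPM in MG (14.2-fold lower, log2 −3.82 ± 0.74, adjusted p = 0.00127). Lox, the enzyme that crosslinks collagen and elastin, was at 1.37, 0.904 and 2.88 CPM in BMDM, against 29.8, 17.7 and 24.9 CPM in MG (14-fold lower, log2 −3.81 ± 0.92, adjusted p = 0.00661). In each of these 3 genes BMDM of BB30105 held the highest BMDM value, still below every MG value. Sparc, a secreted glycoprotein that binds collagen, was at 73.3, 113 and 509 CPM in BMDM, against 2601, 2418 and 3570 CPM in MG (12.3-fold lower, log2 −3.63 ± 0.58, adjusted p = 0.000244). Tppp, which binds tubulin and is best known from oligodendrocytes, was 16.8-fold lower (log2 −4.07 ± 0.73, adjusted p = 0.000645), and Csmd3, a giant membrane protein with complement-control domains, 13.2-fold lower (log2 −3.72 ± 0.82, adjusted p = 0.00342). Fam176a, Liph, Ecscr, Mlph, 1810011O10Rik and Sall1 make up the rest of the 12, at 12.9-fold to 13.7-fold lower in BMDM. For all 12 the BMDM library of BB30105 held the highest BMDM value, and over the 216 genes that met the same conditions it did so for 127 (58.8%). The 475 higher genes stood in MG at a median of 16.5%, 20.1% and 16.8% of their level in BMDM of the same tumour, and the 216 lower genes in BMDM at 24.9%, 20% and 23.9% of their level in MG. What part of these levels belongs to cells of the other population was not tested.

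By difference in CPM, which is not corrected for gene length, genes of antigen presentation led the gains and a gene of the lysosome the losses. Cd74, the invariant chain that guides MHC class II molecules, was at 17150, 28700 and 25500 CPM in BMDM, against 2037, 3485 and 2250 CPM in MG, the largest gain among called genes with separate groups and a ratio of 2-fold or more in each tumour. Ctsd, the lysosomal aspartic protease cathepsin D, was at 20540, 9516 and 11940 CPM in BMDM, against 46580, 47500 and 49890 CPM in MG, the largest loss (3.43-fold lower, log2 −1.78 ± 0.34, adjusted p = 0.00116). Neither overlapped between groups. After the class II genes, the next largest gains were Plbd1, a phospholipase B-like protein (32.6-fold higher, log2 5.03 ± 0.68, adjusted p = 5.18e-05), Rgs1, a regulator of chemokine receptor signalling (3.05-fold higher, log2 1.61 ± 0.43, adjusted p = 0.0132), Cybb, the catalytic chain of the phagocyte NADPH oxidase (7.4-fold higher, log2 2.89 ± 0.44, adjusted p = 0.000146), and Pla2g7, which breaks down platelet-activating factor (6.45-fold higher, log2 2.69 ± 0.49, adjusted p = 0.000712). The call of Rgs1 was lost without the BMDM library of 68702 (adjusted p = 0.0745) or the MG libraries of BB30101 (0.0528) or BB30105 (0.084). Cybb was at 2141, 1127 and 1153 CPM in BMDM, against 197, 181 and 220 CPM in MG. Losses after Ctsd included Cst3, the secreted cathepsin inhibitor cystatin C (2.86-fold lower, log2 −1.52 ± 0.3, adjusted p = 0.00165), Cd81, a tetraspanin (4.07-fold lower, log2 −2.02 ± 0.31, adjusted p = 0.000181), Sparc, Ccl4, Fcrls and Ctsl. Fcrls, a microglial Fc receptor-like gene, was not called without the BMDM library of BB30101 (adjusted p = 0.064).

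Transcription factors were listed by the cells they are known from, so the direction of each list follows in part from that choice. Of 30 factors of macrophages and dendritic cells tested, 18 were higher and 1 lower in BMDM (median log2 1.06, against 0.0068 over all genes), where 12.7% and 8.1% of all genes were called. Without each GEMM library in turn, 12 to 14 of these factors were higher. Runx3, a Runt-domain factor of several leukocyte lineages, was at 84.9, 102 and 118 CPM in BMDM, against 3.74, 13.1 and 5.4 CPM in MG (13.5-fold higher, log2 3.76 ± 0.34, adjusted p = 1.51e-06). Ahr, the aryl hydrocarbon receptor, which is activated by tryptophan breakdown products among other ligands, was at 110.1, 212 and 144 CPM in BMDM, against 2.02, 13.1 and 1.15 CPM in MG (27.8-fold higher, log2 4.8 ± 0.74, adjusted p = 0.000168). In both genes the groups lay far apart, and MG of BB30101 was again the highest of the MG libraries. Bhlhe40, a repressor linked to Il10 control in myeloid cells, was at 483, 769 and 683 CPM in BMDM, against 64.8, 115 and 35.9 CPM in MG (8.98-fold higher, log2 3.17 ± 0.47, adjusted p = 0.000106). Others were Runx2 (19.6-fold higher, log2 4.29 ± 0.6, adjusted p = 6.97e-05), Irf4 (16.9-fold higher, log2 4.08 ± 0.45, adjusted p = 6.45e-06), Vdr, the vitamin D receptor (28.2-fold higher, log2 4.82 ± 0.8, adjusted p = 0.000341), Stat4 (19.2-fold higher, log2 4.26 ± 0.7, adjusted p = 0.000313), Zbtb46, a marker of classical dendritic cells (6.97-fold higher, log2 2.8 ± 0.53, adjusted p = 0.000965), and the lipid-sensing receptors Nr1h3, or LXR alpha (5.81-fold higher, log2 2.54 ± 0.33, adjusted p = 3.4e-05), and Pparg (14.2-fold higher, log2 3.83 ± 0.57, adjusted p = 0.000112). Klf2 was the member that fell (2.46-fold lower, log2 −1.3 ± 0.27, adjusted p = 0.00225), and with the tumour number as a block in the 6 GEMM libraries 2 members did.

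Of 14 microglia transcription factors tested, 5 were lower and none higher, and 9 were not called. Sall1, a repressor needed for microglial identity, was at 5.89, 5.36 and 30.6 CPM in BMDM, against 231, 117 and 224 CPM in MG. Sall3, its paralogue, was at 1.23, 1.34 and 9.21 CPM in BMDM, against 25.4, 25.6 and 43.6 CPM in MG (8.01-fold lower, log2 −3.0 ± 0.62, adjusted p = 0.002). In BMDM both were several times higher in BB30105 than in the other tumours, and still below every MG value. Tal1 (5-fold lower, log2 −2.32 ± 0.54, adjusted p = 0.00499), Mef2c (2.31-fold lower, log2 −1.21 ± 0.34, adjusted p = 0.0183) and Smad3, which carries TGF-beta signals to the nucleus (2.31-fold lower, log2 −1.21 ± 0.32, adjusted p = 0.013), were the other members that fell. Smad3 was not called without the BMDM library of BB30101 (adjusted p = 0.0755) or the MG library of BB30105 (0.0617). Mef2c was not called without the BMDM libraries of BB30101 (0.0922) or BB30105 (0.052) or the MG library of 68702 (0.0727). Without BMDM of BB30101 the list had 3 lower members. Factors that macrophages and microglia both need were not called: Irf8 averaged 484 ± 122 CPM in BMDM and 628 ± 96.1 CPM in MG, and Cebpa 91.6 ± 26.3 CPM in BMDM and 114 ± 37.9 CPM in MG (SD, n = 3 each, as for all means below).

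**Figure D2:**
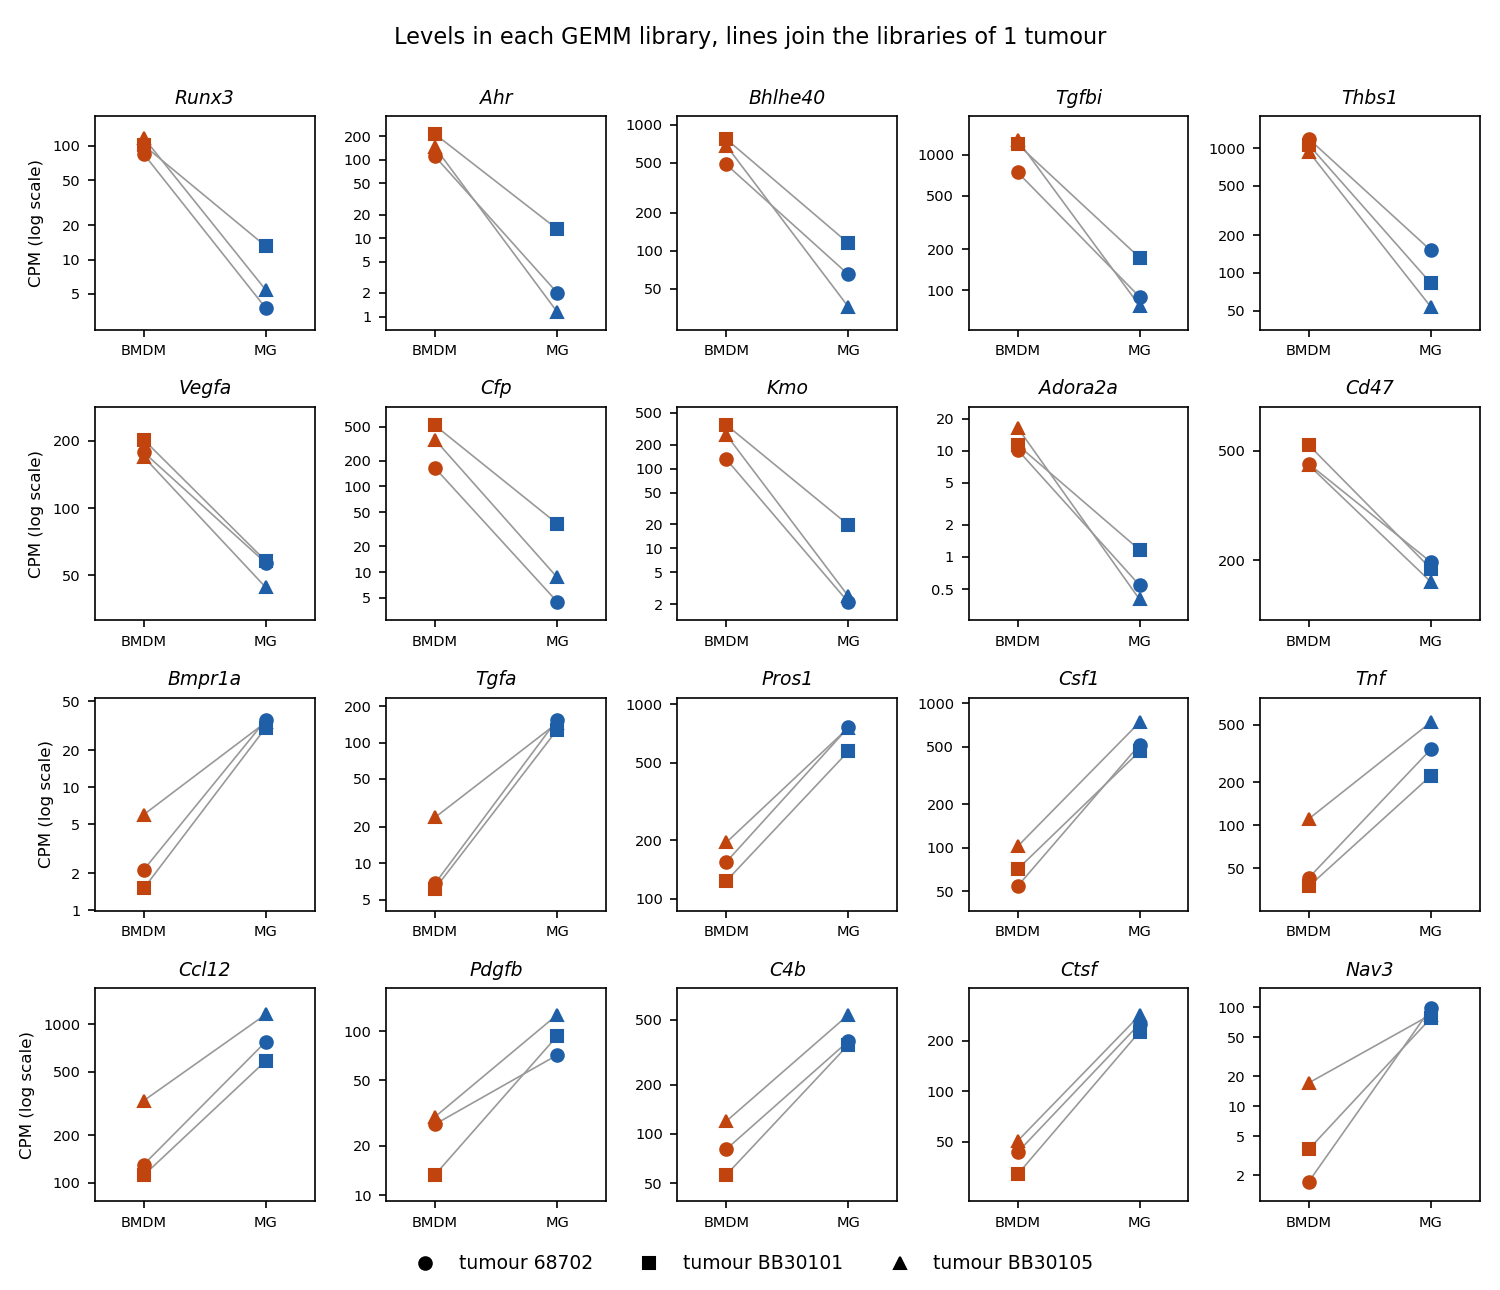
CPM (log scale) of 20 genes in the 6 GEMM libraries, BMDM left and MG right, with a line joining the libraries of 1 tumour. In the upper 10 genes each BMDM value stands above each MG value and in the lower 10 each stands below, and the values of BB30101 in MG and BB30105 in BMDM are often the nearest to the other group.

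Surface and secreted genes of microglia made the most one-sided list: 23 of 27 (85.2%) were lower in BMDM and 4 were not called, with a median log2 of −2.0. The list was assembled from genes known to mark microglia, so its direction follows from that choice. Gpr34, a lysophosphatidylserine receptor, was at 232, 80.9 and 197 CPM in BMDM, against 2017, 877 and 1566 CPM in MG (8.75-fold lower, log2 −3.13 ± 0.48, adjusted p = 0.00016). Golm1, a Golgi membrane protein, was at 242, 155 and 283 CPM in BMDM, against 1049, 795 and 1132 CPM in MG (4.38-fold lower, log2 −2.13 ± 0.3, adjusted p = 7.48e-05). Both genes were lowest in BB30101, in BMDM and in MG. Crybb1 was 11.6-fold lower (log2 −3.54 ± 0.5, adjusted p = 6.78e-05), and Scoc, a short coiled-coil Golgi protein, 4-fold lower (log2 −2.0 ± 0.22, adjusted p = 6.45e-06). Cx3cr1, the fractalkine receptor often used to mark microglia, was at 1395, 602 and 748 CPM in BMDM, against 2519, 1560 and 2265 CPM in MG, below in BMDM but not called (log2 −1.21 ± 0.58, adjusted p = 0.157), and was called with the tumour number as a block (adjusted p = 0.00259 over 12 and 0.00296 over 6 libraries) and in a fit of the 6 GEMM libraries alone, without a block (0.038). Lag3, an inhibitory receptor better known from T cells, was at 34.9, 12.3 and 43.2 CPM in BMDM, against 192, 62 and 263 CPM in MG (5.72-fold lower, log2 −2.52 ± 0.51, adjusted p = 0.00187). Over the whole list, levels in BMDM were a median 29%, 22.5% and 22.5% of those in MG of the same tumour.

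Among 28 integrins and adhesion genes 8 were higher and 3 lower in BMDM, and among 21 chemokine receptors 11 were higher and none lower, against 12.7% higher and 8.1% lower over all genes. The receptor count was 7 without the MG library of 68702 or of BB30105. With the block, 3 chemokine receptors were lower (12 or 6 libraries), and in the 6 GEMM libraries 9 adhesion genes were higher and 8 lower. Itgb7, which pairs with Itga4 or Itgae to bind mucosal and epithelial ligands, was at 140.1, 264 and 229 CPM in BMDM, against 3.1, 15.4 and 2.35 CPM in MG (29.8-fold higher, log2 4.9 ± 0.53, adjusted p = 6.01e-06). Itgae, or CD103, was at 121, 272 and 238 CPM in BMDM, against 3.99, 16.9 and 5.54 CPM in MG (23.6-fold higher, log2 4.56 ± 0.65, adjusted p = 8.53e-05). Itga9 was at 139, 138 and 112 CPM in BMDM, against 33.6, 35.1 and 51.4 CPM in MG (3.25-fold higher, log2 1.7 ± 0.24, adjusted p = 8.22e-05). None of these 3 genes overlapped between groups. Cd44, the hyaluronan receptor, was 3.93-fold higher (log2 1.97 ± 0.33, adjusted p = 0.000336). Cd9, a tetraspanin, ran the other way at 724, 519 and 657 CPM in BMDM, against 2542, 1831 and 2845 CPM in MG (3.8-fold lower, log2 −1.93 ± 0.24, adjusted p = 2.65e-05).

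Ccr1, an inflammatory chemokine receptor, was at 569, 785 and 669 CPM in BMDM, against 24.7, 77.2 and 34.5 CPM in MG (14.8-fold higher, log2 3.89 ± 0.6, adjusted p = 0.000157). Cxcr4, the receptor of the retention signal Cxcl12, was at 219.5, 70.1 and 121 CPM in BMDM, against 29.2, 26.6 and 34.9 CPM in MG (4.53-fold higher, log2 2.18 ± 0.34, adjusted p = 0.000184), and the dendritic cell receptor Xcr1 at 8.14, 20.6 and 26.1 CPM in BMDM, against 1.28, 3 and 2.83 CPM in MG (7.65-fold higher, log2 2.94 ± 0.44, adjusted p = 0.000125). Their groups did not overlap. Cxcr3, known best from T and NK cells, was also higher (14.2-fold higher, log2 3.83 ± 0.67, adjusted p = 0.000501). Ccr3, the eotaxin receptor of eosinophils, was at 151, 3.28 and 0.762 CPM in BMDM, against 5.42, 2.1 and 0.531 CPM in MG, and its groups overlapped since BMDM of 68702 alone held a high value (log2 4.28 ± 1.4, adjusted p = 0.037). Without that library the log2 fold change was −0.489 (adjusted p = 0.801), and the call was lost with the block (0.137 over 12 and 0.178 over 6 libraries), without any 1 of the MG libraries (0.0591 to 0.139), and in a fit of the 6 GEMM libraries alone (0.185), with limma-voom (0.433) or with no filter (0.0869).

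Of 23 chemokine ligands tested, 6 were higher, 4 lower and 13 not called, against 12.7% higher and 8.1% lower over all genes. Ccl22 and Ccl17, which draw regulatory and other T cells, were both higher. Ccl22 was at 78.5, 142 and 207 CPM in BMDM, against 1.28, 6.76 and 4.74 CPM in MG (33-fold higher, log2 5.04 ± 0.64, adjusted p = 2.78e-05). Ccl17 was at 55.9, 283 and 188 CPM in BMDM, against 1.33, 16.9 and 1.68 CPM in MG (25.9-fold higher, log2 4.69 ± 0.92, adjusted p = 0.00133). Cxcl16, a membrane-bound chemokine, was at 925, 1071 and 1030 CPM in BMDM, against 292, 393 and 369.7 CPM in MG (2.87-fold higher, log2 1.52 ± 0.21, adjusted p = 5.09e-05), and the neutrophil attractants Cxcl2 and Cxcl3 were 3.06-fold higher (log2 1.61 ± 0.33, adjusted p = 0.00207) and 9.55-fold higher (log2 3.26 ± 0.7, adjusted p = 0.00267). Pf4, a chemokine also abundant in platelets, was 10.7-fold higher (log2 3.42 ± 0.58, adjusted p = 0.000433). All of these had BMDM values above every MG value.

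The 4 ligands that were lower were Ccl12, Ccl4, Ccl2 and Ccl3. Ccl12, a ligand of Ccr2, was at 130.5, 112 and 329.5 CPM in BMDM, against 774, 587 and 1151 CPM in MG (4.39-fold lower, log2 −2.14 ± 0.47, adjusted p = 0.00312). Ccl4 was at 532, 621 and 795 CPM in BMDM, against 2491, 2257 and 3749 CPM in MG (4.36-fold lower, log2 −2.13 ± 0.51, adjusted p = 0.00626). Both had their highest value in BB30105, in BMDM and in MG alike, with no overlap between groups. Ccl2 (3.6-fold lower, log2 −1.85 ± 0.49, adjusted p = 0.0114) and Ccl3 (3.32-fold lower, log2 −1.73 ± 0.49, adjusted p = 0.0179) also fell, but Ccl2 was not called without the BMDM library of BB30101 (adjusted p = 0.0626) or the MG library of BB30105 (0.0531). Ccl3 was not called without the MG library of BB30105 (0.0563) or the BMDM library of that tumour (0.062). Without MG of BB30105 2 chemokines were lower, and with the tumour number as a block 10 were higher (12 or 6 libraries).

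Of 34 cytokines and receptors tested, 9 were higher and 2 lower, against 12.7% higher and 8.1% lower over all genes. Il1r2, the decoy receptor that binds interleukin-1 without signalling, was at 266, 839 and 560.3 CPM in BMDM, against 6.2, 47.7 and 5.49 CPM in MG (27.8-fold higher, log2 4.8 ± 0.94, adjusted p = 0.00147). Il1rn, the soluble receptor antagonist, was at 1124, 283 and 247 CPM in BMDM, against 139, 151 and 129 CPM in MG, highest by far in BMDM of 68702 (3.95-fold higher, log2 1.98 ± 0.51, adjusted p = 0.0102). It was not called without that library (adjusted p = 0.164), without MG of BB30105 (0.0541), with the block over 6 libraries (0.086) or in a fit of those 6 alone (0.0633). The agonists did not pass the test: Il1b averaged 3841 ± 1106 CPM in BMDM and 2008 ± 405 CPM in MG, and Il1a 1115 ± 371 CPM in BMDM and 3084 ± 826 CPM in MG. Under the block Il1b was called higher (adjusted p = 0.0271 over 12 and 0.00471 over 6 libraries) and Il1a lower (0.0223 and 0.00884). A fit of the 6 GEMM libraries alone, without a block, called both (0.0385 for Il1b and 0.0109 for Il1a), and DESeq2 called Il1a (0.0203). Il10, an anti-inflammatory cytokine, was low in both, at 12.5, 4.92 and 5.85 CPM in BMDM, against 1.43, 0.612 and 0.531 CPM in MG, with no overlap (9.1-fold higher, log2 3.19 ± 0.61, adjusted p = 0.00113). Il7r, the interleukin-7 receptor (4.86-fold higher, log2 2.28 ± 0.45, adjusted p = 0.00152), and Il2rg, the chain it shares with the interleukin-2 receptor (2.51-fold higher, log2 1.33 ± 0.24, adjusted p = 0.000804), were higher in BMDM.

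Csf1, the growth factor that keeps macrophages and microglia alive, was at 54.1, 70.9 and 102 CPM in BMDM, against 517, 465 and 739.7 CPM in MG (7.59-fold lower, log2 −2.92 ± 0.65, adjusted p = 0.00338). Each MG value was more than 4 times each BMDM value. Its receptor Csf1r was 1.86-fold lower (log2 −0.89 ± 0.29, adjusted p = 0.0365), a call lost with the block over 12 libraries (adjusted p = 0.11), without the BMDM libraries of BB30101 (0.121) or BB30105 (0.111) and without the MG libraries of 68702 (0.0646) or BB30105 (0.109). Tnf was at 43, 37.5 and 111 CPM in BMDM, against 339, 222 and 523 CPM in MG, with no overlap (5.66-fold lower, log2 −2.5 ± 0.66, adjusted p = 0.0112), and lost its call without the BMDM library of BB30101 (adjusted p = 0.0631). Without that library 1 member of the list was lower. With the block, 5 members were lower (12 or 6 libraries).

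**Figure D3:**
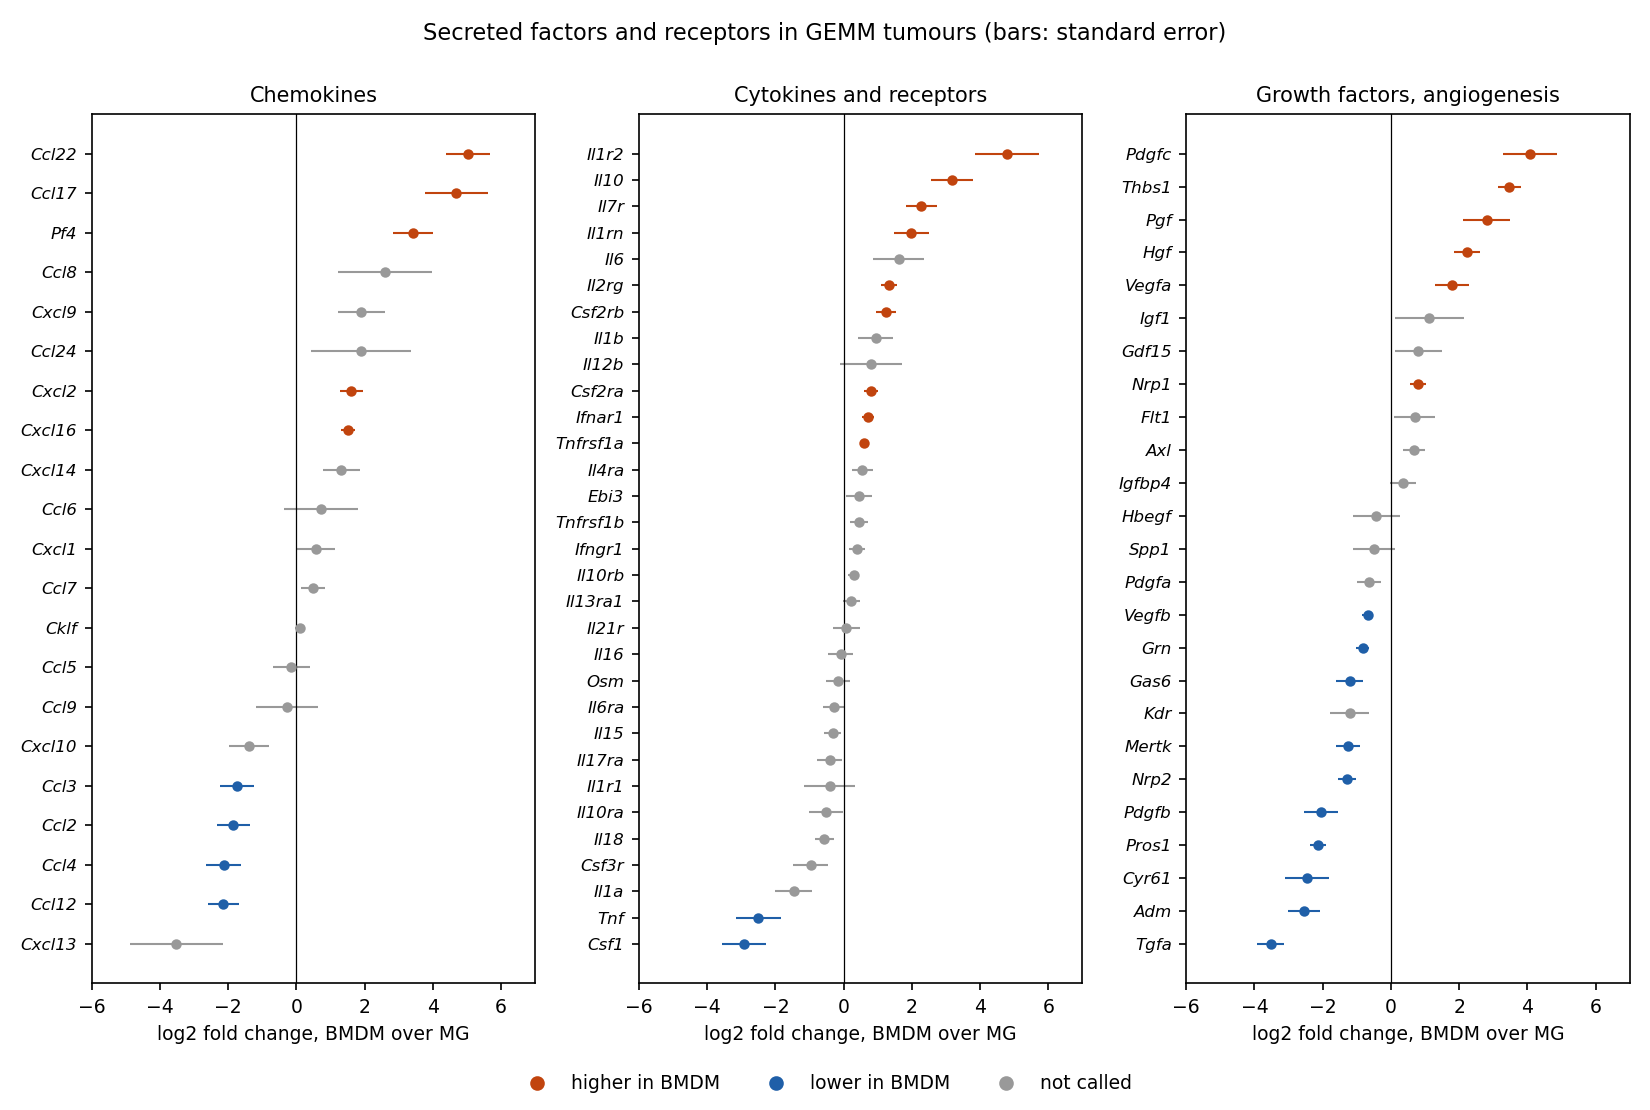
Log2 fold change of BMDM over MG (bars, SE) for the chemokines, the cytokines with their receptors, and the growth and vessel factors whose mean was 5 CPM or more in a group. The upper members, Ccl22, Il1r2 and Pdgfc, rose in BMDM, and the lowest called members were Ccl12, Csf1 and Tgfa.

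Growth and vessel factors were also divided: of 30 tested, 6 were higher and 11 lower (median log2 −0.58), against 12.7% and 8.1% of all genes. Vegfa, the main driver of vessel growth, was at 178, 202 and 169.5 CPM in BMDM, against 56.7, 57.8 and 44.1 CPM in MG (3.47-fold higher, log2 1.79 ± 0.5, adjusted p = 0.0163), but was not called without the BMDM library of BB30101 (adjusted p = 0.0541) or the MG libraries of 68702 (0.0576) or BB30105 (0.0811). Thbs1, a matrix protein that inhibits vessels and activates latent TGF-beta, was at 1184, 1059 and 932 CPM in BMDM, against 151, 82.6 and 53.4 CPM in MG (11.1-fold higher, log2 3.47 ± 0.33, adjusted p = 2.22e-06). Neither overlapped between groups. Hgf, a growth factor that stimulates cell movement, was at 77.6, 54.9 and 24.7 CPM in BMDM, against 13.4, 13.4 and 6.78 CPM in MG (4.67-fold higher, log2 2.22 ± 0.39, adjusted p = 0.00049). Pdgfc was at 71.4, 30.3 and 11.7 CPM in BMDM, against 1.62, 4.11 and 0.797 CPM in MG (16.9-fold higher, log2 4.08 ± 0.8, adjusted p = 0.00133). In BMDM both were highest in 68702. Pgf, a relative of Vegfa, was 6.98-fold higher (log2 2.8 ± 0.69, adjusted p = 0.00717), but was not called without the BMDM library of BB30101 (adjusted p = 0.0598) or in a fit of the 6 GEMM libraries alone (0.0516). With the tumour number as a block in the 6 GEMM libraries, 10 members were higher.

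Tgfa, a ligand of the EGF receptor, was at 6.8, 6.16 and 24 CPM in BMDM, against 155, 127 and 145 CPM in MG (11.6-fold lower, log2 −3.53 ± 0.41, adjusted p = 9.44e-06). MG values were close to each other and each was at least 5 times each BMDM value. Pdgfb was at 27, 13.3 and 30 CPM in BMDM, against 71.3, 93.2 and 126 CPM in MG (4.13-fold lower, log2 −2.04 ± 0.49, adjusted p = 0.00613). The tumours were started with a PDGFB vector, and whether any of its reads were counted under this gene was not tested. Adm, or adrenomedullin, was 5.86-fold lower (log2 −2.55 ± 0.46, adjusted p = 0.000653). Pros1, protein S, which bridges dying cells to phagocytes, was at 155, 124 and 195 CPM in BMDM, against 759.6, 573 and 757 CPM in MG, with no overlap (4.42-fold lower, log2 −2.14 ± 0.24, adjusted p = 6.44e-06). Its receptor Mertk was 2.39-fold lower (log2 −1.26 ± 0.36, adjusted p = 0.0185), a call lost without the BMDM libraries of BB30101 (adjusted p = 0.0841) or BB30105 (0.0747). Axl, a related receptor, averaged 1326 ± 515 CPM in BMDM and 828 ± 174 CPM in MG and was called only with the block over 6 libraries (log2 0.623, adjusted p = 0.034).

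In the TGF-beta family, 6 of 27 members tested were higher and 3 lower, against 12.7% and 8.1% of all genes, with a median log2 of 0.09. Tgfbi, a matrix protein induced by TGF-beta, was at 745, 1200 and 1290 CPM in BMDM, against 89.1, 174 and 76.5 CPM in MG (9.53-fold higher, log2 3.25 ± 0.31, adjusted p = 2.16e-06). Bambi, a pseudoreceptor that dampens TGF-beta signals, was at 39.3, 31.1 and 35.7 CPM in BMDM, against 14.9, 10.6 and 11.1 CPM in MG (2.9-fold higher, log2 1.54 ± 0.29, adjusted p = 0.00088). Bmpr1a, a receptor for bone morphogenetic proteins, was at 2.13, 1.51 and 5.99 CPM in BMDM, against 35.2, 30.6 and 33.8 CPM in MG (10.3-fold lower, log2 −3.37 ± 0.46, adjusted p = 4.92e-05). The groups of all 3 genes were separate. Tgfb1 itself averaged 197 ± 35.2 CPM in BMDM and 154 ± 29.2 CPM in MG and was called higher only with the block over 6 libraries (adjusted p = 0.0465). The higher members numbered 2 without the MG library of 68702 and 3 without that of BB30101 or BB30105, and the lower members 1 without MG of BB30105 or BMDM of BB30101. With the block in the 6 GEMM libraries 10 were higher and 6 lower.

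Complement genes were lower in BMDM in 8 of 19 members tested and higher in 3 (median log2 −0.93), against 8.1% lower and 12.7% higher over all genes. C1qb, a chain of the recognition molecule C1q, was at 6008, 4747 and 5028 CPM in BMDM, against 9434, 9617 and 10830 CPM in MG (1.89-fold lower, log2 −0.92 ± 0.2, adjusted p = 0.00336), and C1qc was 2.16-fold lower (log2 −1.11 ± 0.2, adjusted p = 0.000567). C4b, of the classical pathway, was at 80.7, 56.2 and 119.7 CPM in BMDM, against 370.4, 352 and 537 CPM in MG (4.91-fold lower, log2 −2.3 ± 0.47, adjusted p = 0.00181). C2, its partner protease, was 5.29-fold lower (log2 −2.4 ± 0.36, adjusted p = 0.000125). The higher members are known to act in or on the alternative pathway. Cfp, or properdin, which stabilises its convertase, was at 164, 514 and 351 CPM in BMDM, against 4.53, 36.8 and 8.72 CPM in MG (20.4-fold higher, log2 4.35 ± 0.79, adjusted p = 0.000721), Cfb, the convertase's protease, was 3.16-fold higher (log2 1.66 ± 0.42, adjusted p = 0.00872), and Cd55, which breaks the convertase up, 10.1-fold higher (log2 3.33 ± 0.75, adjusted p = 0.0047). No values overlapped in any of these genes. Cfb was not called without the MG library of 68702 (adjusted p = 0.0631) or of BB30101 (0.059), and 5 members were higher with the block in the 6 GEMM libraries.

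MHC class II genes present extracellular antigen to CD4 T cells, and Ciita is the coactivator that switches them on through factors bound to their promoters. Of 20 members tested, 11 were higher and none lower (median log2 1.21). Ciita was at 166, 307 and 265 CPM in BMDM, against 6.5, 19.1 and 9.26 CPM in MG (21.1-fold higher, log2 4.4 ± 0.45, adjusted p = 3.21e-06). H2-Eb1, a beta chain, was at 3460, 6460 and 5655 CPM in BMDM, against 252, 549.7 and 270 CPM in MG (14.5-fold higher, log2 3.86 ± 0.42, adjusted p = 5.89e-06). H2-DMb1, a chain of the peptide editor H2-DM, was at 464, 739.9 and 656 CPM in BMDM, against 160.1, 189 and 181 CPM in MG (3.5-fold higher, log2 1.81 ± 0.27, adjusted p = 0.000123). Each of these had BMDM values above all MG values, and BB30101 was the highest tumour in both populations. H2-Ob, a chain of the H2-DM inhibitor, was at 73, 139 and 113 CPM in BMDM, against 54.4, 37.4 and 48.8 CPM in MG, above in BMDM but not called (log2 1.21 ± 0.56, adjusted p = 0.142). It was called in fits of the 6 GEMM libraries alone, with the block (adjusted p = 0.0465) and without it (0.0161). Nfyb, a subunit of the NF-Y factor that binds class II promoters, averaged 22.2 ± 4.31 CPM in BMDM and 24.6 ± 2.29 CPM in MG and was not called.

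Promoters of class II genes are known to share a Y box, a CCAAT box read on the opposite strand as ATTGG, bound by the NF-Y factors, and the sequences are shown because these genes rose together. RefSeq promoters (GRCm38.p6) were available here for 8 of the 9 H2 genes of the list, and the 110 bases before the start were searched for ATTGG or CCAAT, which is the same motif on the 2 strands. It was present in 7 of the 8 genes and in 7 of their 9 promoters, against 20.2% of all 32851 promoters of that length. Of the 6 other genes of the list with a promoter available, 2 held the motif. The longer CTGATTGG, or its reverse complement, was in 4 of the 9 H2 promoters and in 2.74% of all promoters. Capitals mark each ATTGG or CCAAT. H2-Aa lies on the minus strand at chr17:34287824-34287933, H2-Eb1 on the plus strand at chr17:34305757-34305866, H2-DMb1 on the plus strand at chr17:34153081-34153190 and H2-DMb2 on the plus strand at chr17:34145139-34145248.
H2-Aa: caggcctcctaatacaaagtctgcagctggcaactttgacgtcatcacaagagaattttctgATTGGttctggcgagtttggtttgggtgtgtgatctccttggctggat
H2-Eb1: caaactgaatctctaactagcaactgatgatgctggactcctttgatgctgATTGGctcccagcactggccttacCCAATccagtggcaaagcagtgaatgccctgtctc
H2-DMb1: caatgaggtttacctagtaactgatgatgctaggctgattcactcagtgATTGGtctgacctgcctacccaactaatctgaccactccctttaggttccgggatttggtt
H2-DMb2: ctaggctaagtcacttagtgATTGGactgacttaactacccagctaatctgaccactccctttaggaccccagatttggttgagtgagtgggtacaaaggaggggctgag
ATTGG begins 48 bases before the start in H2-Aa, 59 in H2-Eb1, 61 in H2-DMb1 and 90 in H2-DMb2. H2-DMb2, the second beta chain of the peptide editor, was at 94.4, 236 and 165 CPM in BMDM, against 6.99, 21.4 and 9.61 CPM in MG (12.9-fold higher, log2 3.69 ± 0.57, adjusted p = 0.00016). H2-Aa, the alpha chain that pairs with H2-Ab1, was at 4978, 9475 and 8392 CPM in BMDM, against 480.2, 932 and 547 CPM in MG. Both had separate groups. The motif is also in the promoter of H2-Ob, which was not called, and neither of the 2 promoters of H2-DMa, which was called (log2 1.07 ± 0.23, adjusted p = 0.00276), holds it in this window.

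Among 26 genes of T cell costimulation and checkpoints, 6 were higher and 4 lower in BMDM, against 12.7% and 8.1% of all genes. Cd40, which activates antigen-presenting cells when T cells engage it, was at 54.2, 81.2 and 92.5 CPM in BMDM, against 6.7, 11.1 and 13.7 CPM in MG (7.22-fold higher, log2 2.85 ± 0.27, adjusted p = 2.11e-06). Slamf7, a self-ligand receptor of leukocytes, was at 186, 148 and 201 CPM in BMDM, against 9.8, 11.1 and 7.88 CPM in MG (18.6-fold higher, log2 4.22 ± 0.42, adjusted p = 2.63e-06). Btla, an inhibitory receptor, was at 64.2, 136 and 108 CPM in BMDM, against 1.43, 7.26 and 0.664 CPM in MG (31.7-fold higher, log2 4.99 ± 0.68, adjusted p = 5.23e-05). None of these overlapped. Cd80 was 5.39-fold higher (log2 2.43 ± 0.47, adjusted p = 0.00127), whereas its relative Cd86 averaged 349.57 ± 34.7 CPM in BMDM and 526 ± 84.8 CPM in MG and was not called. In fits of the 6 GEMM libraries alone Cd86 was called lower, with the block (adjusted p = 0.029) and without it (0.0404). Cd274, which encodes PD-L1, averaged 133 ± 9.43 CPM in BMDM and 80.5 ± 0.712 CPM in MG and was not called. It was called higher with the block (adjusted p = 0.0168 over 12 and 0.00352 over 6 libraries) and in a fit of the 6 without a block (0.00509). Pvrl2, the nectin ligand of TIGIT, was at 10.7, 21.2 and 22.3 CPM in BMDM, against 64.6, 86.4 and 80.2 CPM in MG (4.26-fold lower, log2 −2.09 ± 0.29, adjusted p = 6.12e-05), and Cd276, or B7-H3, was 2.54-fold lower (log2 −1.35 ± 0.33, adjusted p = 0.00648). With the block, 10 members were higher over the 12 tumour libraries and 13 over the 6 GEMM libraries, and 7 were lower over the 6.

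Dendritic cell genes were higher in 17 of 23 members tested, with a median log2 of 4.58, the highest of the 28 lists. Ly75, the antigen uptake receptor DEC-205, was at 10.1, 28.2 and 27.1 CPM in BMDM, against 0.443, 0.962 and 0.576 CPM in MG (31.8-fold higher, log2 4.99 ± 0.62, adjusted p = 1.9e-05). Kit was at 74.2, 137 and 146 CPM in BMDM, against 2.07, 8.89 and 3.19 CPM in MG (24.7-fold higher, log2 4.63 ± 0.71, adjusted p = 0.000167). Dpp4, or CD26, was at 174, 364 and 303 CPM in BMDM, against 3.59, 20.6 and 2.21 CPM in MG (31.3-fold higher, log2 4.97 ± 0.82, adjusted p = 0.000321). MG of BB30101 again held the highest MG value of each gene, far below BMDM. Clec9a, which marks cross-presenting dendritic cells, was 11.5-fold higher (log2 3.52 ± 0.77, adjusted p = 0.00312). Itgax, or CD11c, averaged 493 ± 30.2 CPM in BMDM and 309 ± 107 CPM in MG and was called higher only with the block over 6 libraries (adjusted p = 0.0285). Sirpa was 1.8-fold lower (log2 −0.85 ± 0.28, adjusted p = 0.0379), a call lost without the BMDM libraries of BB30101 (adjusted p = 0.15) or BB30105 (0.127) or the MG libraries of 68702 (0.0946) or BB30105 (0.0638). The list then had no lower member, and with the block it had 2. The list overlaps the chemokine, chemokine receptor and integrin lists. In MG the list stood at a median of 3.18%, 6.36% and 2.32% of its level in BMDM of the same tumour.

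Receptors of the Siglec, SIRP, paired immunoglobulin-like and Ms4a families were higher in 20 of 33 members tested and lower in 4 (median log2 1.76). Cd47, the signal against phagocytosis that Sirpa reads, was at 447, 523 and 442 CPM in BMDM, against 197, 186 and 167 CPM in MG, in narrow and separate ranges (2.57-fold higher, log2 1.36 ± 0.13, adjusted p = 2.16e-06). Ms4a6c, a tetraspan protein, was at 689, 628 and 543 CPM in BMDM, against 158, 169 and 94.9 CPM in MG (4.4-fold higher, log2 2.14 ± 0.28, adjusted p = 3.13e-05), and the inhibitory receptor Lilrb3 at 221, 260.5 and 219 CPM in BMDM, against 44.7, 70.9 and 43.7 CPM in MG (4.4-fold higher, log2 2.14 ± 0.22, adjusted p = 3.34e-06). Sirpb1a had the largest fold of the list (56-fold higher, log2 5.81 ± 0.54, adjusted p = 1.71e-06), though its reads can be shared with near-identical Sirpb1 genes. Siglech, a Siglec of microglia, was at 49.1, 51 and 182 CPM in BMDM, against 849, 612 and 1200 CPM in MG (9.42-fold lower, log2 −3.24 ± 0.6, adjusted p = 0.000856). Without BMDM of BB30101 or of BB30105 1 member of the list was lower.

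Of 35 Fc and pattern receptors tested, 10 were higher and 6 lower, against 12.7% and 8.1% of all genes. Clec4n, or Dectin-2, was at 283, 191 and 197 CPM in BMDM, against 7.04, 17.7 and 7.93 CPM in MG (20.4-fold higher, log2 4.35 ± 0.51, adjusted p = 1.13e-05). Clec12a, an inhibitory receptor for uric acid crystals, was at 195, 52.2 and 60.6 CPM in BMDM, against 3.59, 4.22 and 2.04 CPM in MG (30.9-fold higher, log2 4.95 ± 0.63, adjusted p = 2.71e-05). Tlr8, a sensor of RNA, was 22.7-fold higher (log2 4.5 ± 0.61, adjusted p = 5.07e-05), while Tlr2, a sensor of bacterial lipoproteins, was 3.31-fold lower (log2 −1.73 ± 0.48, adjusted p = 0.0163), not called without the BMDM library of BB30101 (adjusted p = 0.088). Fcgr3 was at 1155, 1111 and 859 CPM in BMDM, against 2288, 1966 and 2013 CPM in MG (2.01-fold lower, log2 −1.0 ± 0.16, adjusted p = 0.000298). Ly86, the MD-1 protein, was at 1325, 1130 and 1381 CPM in BMDM, against 3377, 2431 and 2967 CPM in MG (2.29-fold lower, log2 −1.19 ± 0.26, adjusted p = 0.00281). Groups were separate in all genes given with their values. Lower members numbered 3 without BMDM of BB30101 and 10 with the block in the 6 GEMM libraries.

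Lysosomal genes were lower in 8 of 32 members tested and higher in 2 (median log2 −0.34), against 8.1% lower and 12.7% higher over all genes. Ctsf, a cysteine cathepsin, was at 43.3, 32 and 50.5 CPM in BMDM, against 252, 226 and 283 CPM in MG (6.05-fold lower, log2 −2.6 ± 0.28, adjusted p = 6.03e-06). Ctsl, another, was at 401, 525 and 521 CPM in BMDM, against 2583, 2125 and 2314 CPM in MG (4.85-fold lower, log2 −2.28 ± 0.42, adjusted p = 0.000841). The groups of both were far apart. Ctsz was 2.07-fold lower (log2 −1.05 ± 0.16, adjusted p = 0.000161). Ctsb averaged 13641 ± 4754 CPM in BMDM and 19523 ± 792 CPM in MG and was not called. It was called lower without the BMDM library of 68702 (adjusted p = 0.00598), with DESeq2 (0.0211) and with limma-voom (0.0492). Without BMDM of 68702 13 members were lower and none higher. Without BMDM of BB30101 or BB30105 5 members were lower, and no member was higher without BMDM of BB30101 or the MG libraries of 68702 or BB30105.

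Lipid genes were mostly not called: 6 of 25 were higher and 3 lower, against 12.7% and 8.1% of all genes. Pltp, which moves phospholipid between lipoproteins, was at 242, 399 and 159 CPM in BMDM, against 17.9, 34.6 and 10.4 CPM in MG (12.7-fold higher, log2 3.66 ± 0.58, adjusted p = 0.000205). Apoc2 was 3.64-fold higher (log2 1.86 ± 0.37, adjusted p = 0.00163). Apoe, at 73660, 35020 and 22870 CPM in BMDM, against 39400, 30340 and 12850 CPM in MG, had its highest value in 68702 and its lowest in BB30105 in both populations, and the groups overlapped (log2 0.67 ± 0.43, adjusted p = 0.302). With the block, 10 members were higher (12 or 6 libraries), and without BMDM of 68702 6 were lower. Trem2, the lipid-sensing receptor of phagocytes, was 2.33-fold lower (log2 −1.22 ± 0.24, adjusted p = 0.00146). Ch25h, which makes 25-hydroxycholesterol, an oxysterol, was at 4.48, 4.92 and 17.6 CPM in BMDM, against 71.7, 33.9 and 30.1 CPM in MG (5.01-fold lower, log2 −2.33 ± 0.45, adjusted p = 0.00112), and was not called with the block in the 6 GEMM libraries (adjusted p = 0.0642).

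In cholesterol synthesis 5 of 19 members were higher and 1 lower, against 12.7% and 8.1% of all genes. Srebf2, the master regulator of the pathway, was at 29.3, 52.8 and 53 CPM in BMDM, against 9.75, 13.6 and 12.8 CPM in MG (3.72-fold higher, log2 1.9 ± 0.23, adjusted p = 1.81e-05). Cyp51, a sterol demethylase, was at 39.4, 85.4 and 71.9 CPM in BMDM, against 20.9, 26.1 and 21.2 CPM in MG (2.88-fold higher, log2 1.53 ± 0.23, adjusted p = 0.000151). In both genes 68702 held the lowest BMDM value, still above all MG values. The higher members numbered 8 with the block over 12 libraries or without BMDM of 68702, and 3 without BMDM of BB30101, MG of 68702 or MG of BB30105. Dhcr7, the last enzyme of the pathway, was 1.57-fold lower (log2 −0.65 ± 0.15, adjusted p = 0.0047).

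In glycolysis and hypoxia 7 of 24 members were lower and 1 higher (median log2 −0.50), against 8.1% lower and 12.7% higher over all genes. The phosphofructokinase genes moved in opposite directions, with the platelet form Pfkp at 116, 308 and 268 CPM in BMDM, against 18.4, 49.6 and 13.4 CPM in MG (8.47-fold higher, log2 3.08 ± 0.43, adjusted p = 6.05e-05) and the liver form Pfkl at 142, 127 and 177 CPM in BMDM, against 312, 269.5 and 349 CPM in MG (2.09-fold lower, log2 −1.06 ± 0.21, adjusted p = 0.00148). Pdk1, which keeps pyruvate out of the mitochondrion, was at 35.3, 40.4 and 28.3 CPM in BMDM, against 95.2, 81.9 and 95.3 CPM in MG (2.62-fold lower, log2 −1.39 ± 0.19, adjusted p = 4.84e-05). The 3 genes showed no overlap. Hif1a was 1.69-fold lower (log2 −0.76 ± 0.16, adjusted p = 0.00262). Ldha averaged 1498 ± 323 CPM in BMDM and 1584 ± 210.04 CPM in MG and was not called. With the block the lower members were 11 over 12 libraries and 13 over 6, with 2 higher in each, and without BMDM of BB30105 3 were lower.

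Adenosine receptors divided by type. Of 21 purinergic genes tested, 6 were higher and 5 lower, against 12.7% and 8.1% of all genes. The adenosine receptors of the cyclic AMP-raising type were higher, Adora2a at 10.2, 11.3 and 16.4 CPM in BMDM, against 0.542, 1.16 and 0.399 CPM in MG (17.3-fold higher, log2 4.11 ± 0.58, adjusted p = 7.48e-05) and Adora2b at 8.71, 44.2 and 28 CPM in BMDM, against 0.738, 4.69 and 1.28 CPM in MG (11.6-fold higher, log2 3.54 ± 0.66, adjusted p = 0.000899). Those of the cyclic AMP-lowering type were lower, Adora3 at 13.8, 4.05 and 11 CPM in BMDM, against 59.8, 35.6 and 69.4 CPM in MG (5.72-fold lower, log2 −2.52 ± 0.56, adjusted p = 0.00365) and Adora1 5.47-fold lower (log2 −2.45 ± 0.7, adjusted p = 0.0185), the last not called without the BMDM library of BB30101 (adjusted p = 0.0868). Each of these 4 genes had separate groups. P2ry10, a lysophosphatidylserine receptor of lymphocytes, was at 91.4, 272 and 214 CPM in BMDM, against 2.31, 18.3 and 1.55 CPM in MG (25.5-fold higher, log2 4.68 ± 0.82, adjusted p = 0.000541). P2ry12 was at 321, 166 and 310.5 CPM in BMDM, against 1916, 1053 and 2239 CPM in MG (6.53-fold lower, log2 −2.71 ± 0.45, adjusted p = 0.000357), and P2ry6, a UDP receptor linked to phagocytosis, averaged 169 ± 43.8 CPM in BMDM and 226 ± 15.7 CPM in MG and was called lower only without BMDM of 68702 (adjusted p = 0.0205) or with the block over 6 libraries (0.0455). Entpd1 and Nt5e, which turn ATP into adenosine in steps, were not called. Entpd1 averaged 254 ± 80.4 CPM in BMDM and 386 ± 86.5 CPM in MG, and Nt5e 13.5 ± 10.5 CPM in BMDM and 5.57 ± 1.14 CPM in MG. Higher members numbered 3 without BMDM of BB30101, MG of 68702 or MG of BB30105, and lower members 2 without BMDM of BB30101 and 3 without BMDM of BB30105, MG of 68702 or MG of BB30105.

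Tryptophan breakdown and alternative activation had 7 of 21 members higher and none lower, against 12.7% and 8.1% of all genes. Kmo, kynurenine monooxygenase, was at 131, 354 and 266 CPM in BMDM, against 2.12, 19.7 and 2.52 CPM in MG (30.2-fold higher, log2 4.92 ± 0.69, adjusted p = 6.33e-05). Kynu, kynureninase, was at 73.2, 126 and 72.6 CPM in BMDM, against 2.51, 8.83 and 1.37 CPM in MG (20.9-fold higher, log2 4.38 ± 0.63, adjusted p = 8.3e-05), with every BMDM value above every MG value. Ido1 and Ido2, which start the breakdown, and Il4i1, an amino acid oxidase, were below the filter on low counts. Mrc1, the mannose receptor, was 7.83-fold higher (log2 2.97 ± 0.95, adjusted p = 0.0351), a call lost without any library but BMDM of BB30105 (adjusted p = 0.066 to 0.129) and with no filter (0.0755). Arg1, arginase 1, was at 201, 1997 and 220.4 CPM in BMDM, against 34.1, 1032 and 60.7 CPM in MG, with BB30101 highest in both populations and the groups overlapping (log2 1.1 ± 1.39, adjusted p = 0.627). It was called higher with the block (adjusted p = 0.0294 over 12 and 0.0165 over 6 libraries), and its log2 fold change was −0.868 without BMDM of BB30101. Higher members were 4 without the MG library of 68702 or BB30105, 11 with the block over 12 libraries and 13 with it over 6. Over all genes the higher calls moved from 1949 to 1125 and 1105 without those MG libraries, and to 2179 and 2298 with the block. Alox15, a lipoxygenase abundant in eosinophils, was at 410, 12.7 and 1.18 CPM in BMDM, against 6.3, 2.3 and 1.64 CPM in MG, with overlapping groups (log2 5.39 ± 1.8, adjusted p = 0.0422). Its call was lost without BMDM of 68702 (log2 0.94, adjusted p = 0.718), without any 1 of the MG libraries (0.0924 to 0.145), with the block (0.216 over 12 and 0.158 over 6 libraries), and in a fit of the 6 GEMM libraries alone (0.124), with limma-voom (0.356) or with no filter (0.095).

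Matrix genes and proteases had 10 of 36 members higher and 7 lower, against 12.7% and 8.1% of all genes. Mmp14, the membrane-bound collagenase activator, was at 495, 441 and 301 CPM in BMDM, against 85.3, 87 and 71.9 CPM in MG (5.07-fold higher, log2 2.34 ± 0.26, adjusted p = 7.06e-06). Adam19 was at 116, 52.6 and 61.9 CPM in BMDM, against 2.31, 3.9 and 1.37 CPM in MG (29.8-fold higher, log2 4.9 ± 0.72, adjusted p = 0.000108). Timp2, which inhibits metalloproteases and also helps Mmp14 to activate Mmp2, was at 729, 373 and 459 CPM in BMDM, against 1797, 1680 and 1809 CPM in MG (3.39-fold lower, log2 −1.76 ± 0.43, adjusted p = 0.00719). Adamts1 was at 4.3, 3.95 and 19.8 CPM in BMDM, against 135, 78 and 95 CPM in MG (10.9-fold lower, log2 −3.45 ± 0.51, adjusted p = 0.000106). Groups did not overlap in these 4 genes. The coagulation factor F5 was at 91.7, 6.83 and 1.66 CPM in BMDM, against 1.23, 1.43 and 1.11 CPM in MG. Serpinb2, a protease inhibitor, was at 173, 16.1 and 0.727 CPM in BMDM, against 3.64, 0.204 and 0.0443 CPM in MG. Both had their high value in BMDM of 68702. Without that library neither was called (log2 1.65 and 2.64, adjusted p = 0.246 and 0.305). F5 was also not called with the block (0.0634 over 12 and 0.131 over 6 libraries) or without the MG libraries of 68702 (0.057) or BB30105 (0.0611), and Serpinb2 without those of BB30101 (0.12) or BB30105 (0.128). In a fit of the 6 GEMM libraries alone neither was called (0.0819 for F5 and 0.119 for Serpinb2), nor with limma-voom (0.201 and 0.236), and Serpinb2 was not called with no filter (0.0803). Higher members were 6 without BMDM of 68702 or MG of 68702 and 5 without MG of BB30105, and lower members 4 without BMDM of BB30101.

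Of 25 axon guidance and synapse-related receptors, 6 were higher and 5 lower, against 12.7% and 8.1% of all genes. Plxnc1, a semaphorin receptor, was at 45.3, 44.8 and 54.9 CPM in BMDM, against 6.06, 10.4 and 7.93 CPM in MG (5.93-fold higher, log2 2.57 ± 0.23, adjusted p = 1.51e-06). Sema4a, a semaphorin that engages T cells, was at 57.1, 44.8 and 49 CPM in BMDM, against 9.26, 12.9 and 8.94 CPM in MG (4.83-fold higher, log2 2.27 ± 0.26, adjusted p = 1.09e-05). Nav3, known from neurons as a guide of growing axons, was at 1.74, 3.68 and 17.2 CPM in BMDM, against 97.9, 77.8 and 84.1 CPM in MG (11.5-fold lower, log2 −3.52 ± 0.6, adjusted p = 0.000443). Plxdc2 was at 214, 85.7 and 124 CPM in BMDM, against 700.1, 452 and 619.5 CPM in MG (4.18-fold lower, log2 −2.06 ± 0.49, adjusted p = 0.00539). The groups were apart in all 4, and Nav3 in BMDM was highest in BB30105.

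Actin and motility genes were higher in 15 of 30 members tested and lower in 4 (median log2 0.76); the lower members were 2 without BMDM of BB30101. Cnn2, a calponin that stabilises actin, was at 214, 315 and 294 CPM in BMDM, against 19.2, 33.2 and 26.5 CPM in MG (10.4-fold higher, log2 3.38 ± 0.24, adjusted p = 2.24e-07). Arhgap15, a brake on Rac, was at 165, 134 and 132 CPM in BMDM, against 16.4, 19.96 and 9.96 CPM in MG (9.3-fold higher, log2 3.22 ± 0.33, adjusted p = 3.34e-06). Anxa3 was lower at 325, 289 and 293 CPM in BMDM, against 817, 600.2 and 763 CPM in MG (2.4-fold lower, log2 −1.26 ± 0.27, adjusted p = 0.00295).

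Genes of monocytes were higher in 22 of 31 members tested and lower in none (median log2 3.40), a list chosen to mark the lineage. Plac8 was at 213, 237 and 352 CPM in BMDM, against 8.32, 15.8 and 12.2 CPM in MG (22-fold higher, log2 4.46 ± 0.32, adjusted p = 2.24e-07). Lsp1, a leukocyte protein that binds actin, was at 226, 484 and 409 CPM in BMDM, against 22.1, 53.8 and 30.2 CPM in MG (10.5-fold higher, log2 3.4 ± 0.38, adjusted p = 7.07e-06). Napsa, an aspartic protease, was at 209, 432 and 375 CPM in BMDM, against 3.3, 26.5 and 3.32 CPM in MG (30.3-fold higher, log2 4.92 ± 0.63, adjusted p = 2.95e-05). Groups were apart in all 3. F13a1 and Fn1, a coagulation factor and a matrix protein of monocytes, were not called. F13a1 averaged 22.7 ± 9.87 CPM in BMDM and 10.6 ± 7.03 CPM in MG, and Fn1 329 ± 191 CPM in BMDM and 149 ± 72.3 CPM in MG.

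Interferon response genes had 7 of 34 members (20.6%) higher and none lower, against 12.7% higher and 20.8% in either direction over all genes. Ifitm1, which restricts virus entry, was at 121, 505 and 355 CPM in BMDM, against 2.9, 47 and 2.66 CPM in MG (18.4-fold higher, log2 4.21 ± 0.97, adjusted p = 0.00485), but was not called in a fit of the 6 GEMM libraries alone (adjusted p = 0.0766). Ifitm2 was at 136, 363 and 331 CPM in BMDM, against 44.3, 71.3 and 33.5 CPM in MG (5.56-fold higher, log2 2.48 ± 0.43, adjusted p = 0.00047). Both had separate groups, with BB30101 highest in each population. Ifit1, a typical induced gene, averaged 101 ± 31.9 CPM in BMDM and 94.2 ± 19.966 CPM in MG and was not called. Higher members were 4 without BMDM of 68702 or MG of BB30101 and 3 without BMDM of BB30105 or MG of 68702. Under the block they were 13 over 12 libraries and 18 over 6, with 1 lower member in each, as without BMDM of BB30105.

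In cell cycle and DNA replication, 1 of 30 members was called, Ccne2, or cyclin E2, at 3.51, 2.58 and 4.16 CPM in BMDM, against 10.9, 6.99 and 12.8 CPM in MG (2.99-fold lower, log2 −1.58 ± 0.37, adjusted p = 0.00483). In 13 members, Ccne2 among them, each BMDM value was below each MG value, against 19% of all genes. Mki67 averaged 58.1 ± 19.1 CPM in BMDM and 79.6 ± 4.11 CPM in MG and was not called. Cdk1 averaged 38.7 ± 11.8 CPM in BMDM and 79.9 ± 4.8 CPM in MG and was not called. It was called lower with the block (adjusted p = 0.00245 over 12 and 0.00433 over 6 libraries), in a fit of the 6 without a block (0.0114) and with limma-voom (0.00559). Under the block 11 members were lower over the 12 tumour libraries, and 13 were lower and 1 higher over the 6 GEMM libraries. Without BMDM of BB30105 2 were lower.

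Immediate early genes, which rise when tissue is dissociated, were called in 4 of 23 members (17.4%), 3 higher and 1 lower, a share near the 20.8% of all genes. Nr4a1, a nuclear receptor, was 1.82-fold higher (log2 0.86 ± 0.26, adjusted p = 0.0262), a call lost without any 1 of the 6 libraries (adjusted p = 0.0655 to 0.132). None was higher without BMDM of BB30101, BMDM of BB30105, MG of 68702 or MG of BB30101, and none lower without BMDM of BB30101, BMDM of BB30105, MG of 68702 or MG of BB30105. The lower members numbered 2 without BMDM of 68702 and 3 without MG of BB30101. With the block 2 were lower over 12 libraries, and 5 higher and 6 lower over 6.

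**Figure D4:**
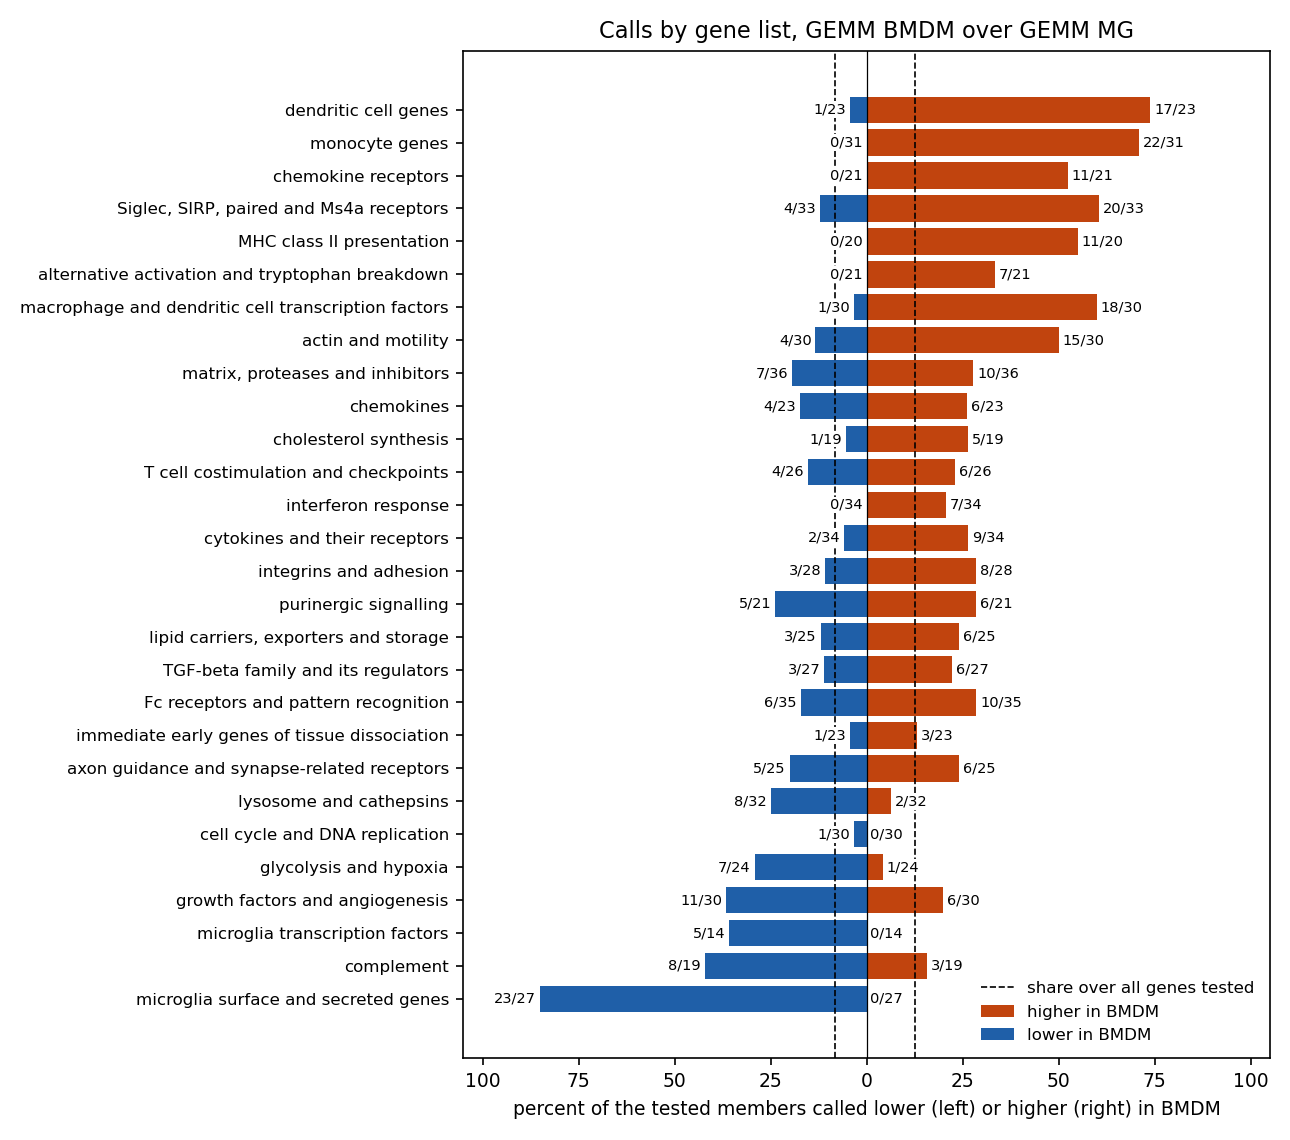
Percent of the tested members of each of the 28 gene lists called higher (right) or lower (left) in BMDM, with the number called over the number tested. Dashed lines mark the shares over all genes, 12.7% higher and 8.1% lower. Dendritic cell and monocyte genes are at the top with 17 of 23 and 22 of 31 higher, and microglia surface genes at the bottom with 23 of 27 lower.

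Markers of other cell types were summed in each library. Dendritic cell markers reached 525, 1122 and 1474 CPM in BMDM, against 92.8, 107 and 128 CPM in MG, and 7 of 8 were called higher. Much of the MG sums came from Fscn1, the member not called, at 77, 42.8 and 106.1 CPM in MG, against 36.9, 46.6 and 132.8 CPM in BMDM. NK cell markers reached 56.9, 171 and 167 CPM in BMDM, against 4.48, 14.7 and 6.73 CPM in MG (6 of 8 higher), and T cell markers 33.6, 53.7 and 76.2 CPM in BMDM, against 2.51, 10.8 and 5.4 CPM in MG (7 of 7 in the table higher). Klrd1 made most of the NK sums in BMDM, at 39.5, 121 and 121 CPM, where Ncr1 was at 0.868, 1.27 and 2.25 CPM. Cd4 made 27.9 CPM of the T cell sum in BMDM of 68702. Cd3e overlapped between groups, at 0.651, 6.26 and 9.87 CPM in BMDM, against 0.197, 1.835 and 0.487 CPM in MG. Neutrophil markers were at 1926, 111 and 13.8 CPM in BMDM, against 43, 16.6 and 1.82 CPM in MG, nearly all in BMDM of 68702, with Elane and Camp at 0 in all 6 libraries. Retnlg alone made 1747, 71.8 and 6.79 CPM of the BMDM sums. S100a9 was at 110.8, 3.65 and 0.104 CPM in BMDM, and S100a8 was likewise highest in 68702. Cxcr2 at 18, 19.2 and 4.12 CPM and Mmp8 at 14.3, 14.9 and 2.42 CPM were no higher in BMDM of 68702 than of BB30101. Mast cell or basophil markers were at 44.4, 127 and 15.9 CPM in BMDM, against 0.935, 16.7 and 0.221 CPM in MG (3 of 8 higher). Markers of border-associated macrophages were at 392, 403 and 286 CPM in BMDM, against 66.8, 118 and 90.9 CPM in MG (3 of 8 higher). Those 3 were Mrc1, Pf4 and Siglec1, which made most of the BMDM sums. Lyve1, Cd163, F13a1, Cbr2 and Folr2 were not called. Folr2 was below in BMDM, at 10.8, 7.83 and 8.21 CPM, against 25.1, 31.1 and 9.43 CPM in MG. Markers of oligodendrocyte precursors or glioma cells were at 94.4, 17.9 and 119.6 CPM in BMDM, against 221, 266 and 169 CPM in MG (3 of 8 called lower). Astrocyte markers were at 51.6, 50.8 and 75.9 CPM in BMDM, against 156, 128 and 196 CPM in MG (2 of 8 called lower, 1 higher). Slc1a3 made most of the astrocyte sum in MG, at 10.1, 4.55 and 27.3 CPM in BMDM, against 124, 91.6 and 156 CPM in MG. Aldoc was the astrocyte marker called higher in BMDM (log2 1.57, adjusted p = 0.00388), and Gfap was not called. The 8 defining macrophage genes were at 11740, 9412 and 9195 CPM in BMDM, against 16660, 13970 and 17310 CPM in MG. The part of these cells in the differences given above, including those of dendritic cell, NK receptor, neural and eosinophil genes, was not tested.

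**Figure D5:**
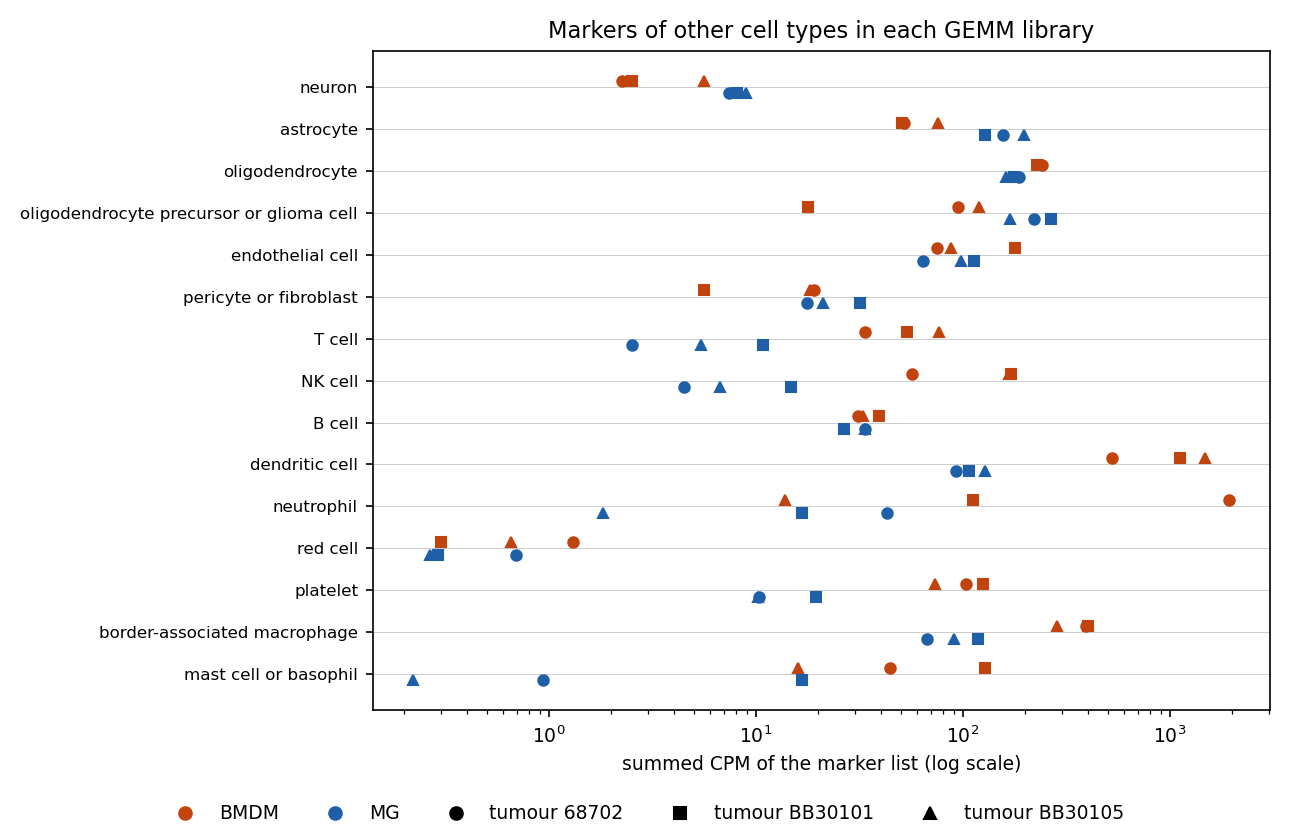
Summed CPM (log scale) of each list of 8 markers in the 6 GEMM libraries, BMDM above MG on each line, with tumours by symbol. The summed BMDM values of dendritic, T and NK cell markers all lie above the MG values. Cd4 made most of the T cell sum of BMDM of 68702, and Klrd1 most of the NK sums in BMDM. The neutrophil sum of BMDM of 68702, mostly Retnlg, lies far from the other libraries.

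Whether the BMDM to MG difference of GEMM tumours departed from that of GL261 tumours, grown from a mouse glioma line in mice of C57BL/6 background (n = 3 libraries per group), was tested as the difference of the 2 log2 fold changes, GEMM minus GL261. It was called for 250 of 15363 genes (1.63%), 157 with a larger log2 fold change in GEMM (1.02%) and 93 with a smaller one (0.605%). Tumour model, animals and any difference in sorting or library preparation cannot be told apart in this comparison. Of 23 dendritic cell genes tested, 3 had a larger log2 fold change in GEMM and none a smaller one, so most of that list was not called for this difference. Ly75 averaged 21.8 ± 10.1 CPM in BMDM and 0.66 ± 0.269 CPM in MG in GEMM, against 12 ± 3.59 CPM in BMDM and 12.2 ± 4.52 CPM in MG in GL261 (difference of log2 fold changes 5.01 ± 0.78, adjusted p = 0.00413). Kit averaged 119 ± 39.1 CPM in BMDM and 4.71 ± 3.66 CPM in MG in GEMM, against 44.1 ± 4.06 CPM in BMDM and 57.6 ± 27.8 CPM in MG in GL261 (difference of log2 fold changes 5.02 ± 0.92, adjusted p = 0.0109), and Xcr1 18.3 ± 9.21 CPM in BMDM and 2.37 ± 0.949 CPM in MG in GEMM, against 4.02 ± 0.398 CPM in BMDM and 4.9 ± 2.25 CPM in MG in GL261 (difference of log2 fold changes 3.22 ± 0.6, adjusted p = 0.0113). In GL261 the BMDM mean of each of these 3 genes was below the MG mean. Siglech averaged 94.1 ± 76.4 CPM in BMDM and 887 ± 296 CPM in MG in GEMM, against 2.51 ± 0.735 CPM in BMDM and 302 ± 209.75 CPM in MG in GL261 (difference of log2 fold changes 3.67 ± 0.83, adjusted p = 0.0331), so that its gap was narrower in GEMM.

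Genes in which the GEMM difference was the more negative included an Fc receptor, a cathepsin and a semaphorin receptor. Fcgr3 averaged 1042 ± 159.69 CPM in BMDM and 2089 ± 174 CPM in MG in GEMM, against 1459 ± 167 CPM in BMDM and 1045 ± 221 CPM in MG in GL261 (difference of log2 fold changes −1.49 ± 0.23, adjusted p = 0.00439). Ctsz averaged 2498 ± 75.3 CPM in BMDM and 5183 ± 705 CPM in MG in GEMM, against 3172 ± 178 CPM in BMDM and 2704 ± 665 CPM in MG in GL261 (difference of log2 fold changes −1.28 ± 0.23, adjusted p = 0.00892). Nrp2, a receptor for semaphorins and VEGF-C, averaged 25.4 ± 3.08 CPM in BMDM and 61.8 ± 12.3 CPM in MG in GEMM, against 71.4 ± 28.5 CPM in BMDM and 42.1 ± 4.9 CPM in MG in GL261 (difference of log2 fold changes −2.04 ± 0.38, adjusted p = 0.0123). The BMDM mean of each of the 3 was below the MG mean in GEMM and above it in GL261. Of these 7 genes Siglech was not called with the tumour number as a block (adjusted p = 0.114), and it also lost its call without 7 of the 12 tumour libraries in turn (0.0591 to 0.091). Fitted on the 12 tumour libraries alone, 14 genes had a larger and 7 a smaller log2 fold change in GEMM, and of the 7 genes named here Ly75 and Kit were called. Larger ones numbered 49 without GEMM MG of 68702, 69 without GEMM BMDM of BB30101, 71 without GEMM MG of BB30105, 104 without GEMM BMDM of BB30105 and 61 without GL261 BMDM of 80766. Smaller ones numbered 33 without GEMM BMDM of BB30101, 50 without GEMM BMDM of BB30105, 54 without GEMM MG of 68702, 48 without GL261 MG of 80767 and 61 without GL261 BMDM of 80769, and 280 without GEMM BMDM of 68702, 170 without GEMM MG of BB30101, 202 without GL261 BMDM of 80767 and 141 without GL261 MG of 80766.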

How the data were processed

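The values are the authors' deposited gene counts, whole read counts per gene symbol with no normalization, for 23329 symbols in 20 libraries made with a Smart-Seq kit from polyA RNA. Reads were processed with STAR 2.5.0e, HTSeq, CASAVA 1.8 and DESeq2 against mm10, per the submitters' processing notes, which give no role or order. The sources used here do not give the annotation or whether counting used strand, so overlapping, antisense and near-identical genes may share reads. Counts were taken from the table as deposited. The 15363 genes that passed edgeR's filterByExpr (minimum count 10, minimum total 15) were scaled by TMM and fitted with edgeR 4.0.16 (R 4.3.3), robust quasi-likelihood, 1 coefficient for each of the 6 groups of the series, with no block, so that all 20 libraries shared 1 estimate of the spread. The contrasts were GEMM BMDM over GEMM MG, and that difference minus the same in GL261. The SE is the absolute log2 fold change over the square root of F. All p-values are 2-sided and adjusted by Benjamini-Hochberg over all genes tested, with a threshold of 0.05. The script was tested on simulated data.

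Tumour numbers were taken to pair the libraries. Deviations from the group means correlated at r = 0.316, 0.222 and 0.196 in the same-numbered BMDM and MG libraries, and at −0.211 to −0.00699 in those of different number (across genes, which are not independent). Each group mean is that of the same 3 libraries, so the negative values follow in part from the positive ones. The pairing comes from the shared numbers and the design text. The fits with the number as a block are therefore given beside results whose call they change.

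Genes were named by rule. These are the 12 per direction with the largest fold change among called genes with a mean of 20 CPM or more in 1 of the groups, no overlap and ratios of 2-fold or more in all 3 tumours; the 8 per direction with the largest difference in mean CPM under the same conditions; up to 4 called members per direction of each of 28 gene lists by p; other list members, to describe a list; and the genes of the sort and lineage. Some genes that meet these rules are not reported here. Of 697 genes in the lists, 678 were tested, 10 were below the filter and 9 were not among the symbols. The tumours compared, the lists and the marker genes were chosen with earlier results of these data known. Alternatives tried were DESeq2's size factors, no filter, DESeq2 1.42.0, limma 3.58.1 with voom, only the groups compared, the block, and each library left out. Gene coordinates and promoters are from RefSeq for GRCm38.p6, matched by symbol or synonym for 714 of 716 symbols. Leaving out 1 library leaves 2 in its group.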

Additional observations from a re-analysis of the deposited data

Results flagged for a closer look

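Genes named only to describe the marker sums were left out here. For 19 of the named genes the BMDM to MG difference of GEMM tumours departed from that of GL261 tumours in edgeR's quasi-likelihood test, with an adjusted p under 0.05 over all genes. The difference of log2 fold changes, GEMM minus GL261, was positive for Ly75 (5.01), Kit (5.02), Siglech (3.67), Xcr1 (3.22), Crybb1 (3.15), Irf4 (2.65), Ciita (2.33), Plac8 (2.02), Srebf2 (1.66) and Cnn2 (1.59). It was negative for Ch25h (−3.58), Ctsl (−2.73), Nrp2 (−2.04), Fcgr3 (−1.49), Ctsz (−1.28), Pdk1 (−1.2), C1qc (−1.18), Hif1a (−1.0) and Dhcr7 (−0.863).

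Ch25h, which makes an oxysterol, averaged 9.01 ± 7.47 CPM in BMDM and 45.2 ± 23 CPM in MG in GEMM, against 49.4 ± 7.65 CPM in BMDM and 20.8 ± 1.93 CPM in MG in GL261 (adjusted p = 0.00795). Srebf2, the regulator of cholesterol synthesis, averaged 45 ± 13.6 CPM in BMDM and 12.1 ± 2.05 CPM in MG in GEMM, against 54.4 ± 9.79 CPM in BMDM and 46.4 ± 8.49 CPM in MG in GL261 (adjusted p = 0.0139). Plac8 averaged 267 ± 74.4 CPM in BMDM and 12.1 ± 3.75 CPM in MG in GEMM, against 49.3 ± 8.48 CPM in BMDM and 9.07 ± 4.71 CPM in MG in GL261 (adjusted p = 0.0167), with BMDM above MG in both models. Ctsl averaged 482 ± 70.2 CPM in BMDM and 2340.5 ± 229.91 CPM in MG in GEMM, against 1401 ± 1334 CPM in BMDM and 1027 ± 223 CPM in MG in GL261 (adjusted p = 0.0235). Fitted on the 12 tumour libraries alone, 17 of the 19 calls were lost (adjusted p = 0.0657 to 0.172), all but those of Ly75 and Kit. Without the MG library of GEMM tumour 68702, 10 were lost, of Ciita (0.134), Irf4 (0.109), Siglech (0.0884), Crybb1 (0.0814), Plac8 (0.075), Dhcr7 (0.074), C1qc (0.0635), Srebf2 (0.0604), Cnn2 (0.0584) and Hif1a (0.0522). Leaving out another of the 12 libraries lost at most 9, with no filter 8 were lost, Ciita (0.0832) among them, and with limma-voom 3. With the tumour number as a block over 12 libraries those of Ch25h, Ctsl, C1qc, Crybb1, Dhcr7, Hif1a, Irf4 and Siglech were lost (0.0549 to 0.116). What part of these differences belongs to the markers of other cell types was not tested.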

How the results depend on the processing

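With 3 libraries per group, the counts of called genes moved between settings, and the cause was not tested. DESeq2 called 1918 genes lower in BMDM, against 1245 in edgeR. Leaving out each GEMM library in turn gave 1105 to 1569 higher and 722 to 1399 lower genes. For the difference between GEMM and GL261, larger log2 fold changes in GEMM numbered 435 with DESeq2, 14 in a fit of only the groups compared and 49 to 213 without each library in turn. Smaller ones numbered 373 with DESeq2, 162 with limma-voom, 43 with no filter, 7 with only the groups compared and 33 to 280 without each library. The replicate block over 12 libraries gave 2179 higher and 1496 lower genes in GEMM, with 192 and 105 for the difference between models, and the block over the 6 GEMM libraries 2298 and 1695. Genes named only to describe the marker sums are left out of the counts of named genes. Of all 3194 calls, 1962 were kept without BMDM of BB30101 and 2470 without BMDM of 68702, the lowest and highest numbers with 1 GEMM library left out. Many named genes were chosen by small p or by agreement of the 3 tumours, so their share does not stand for all calls. Of 180 called genes named in the text, 157 kept their call without each GEMM library in turn and 23 lost it without 1 or more. All 180 kept it with DESeq2's size factors, and 4 lost it with limma-voom, 4 with no filter, 4 with the block over 12 libraries, 5 with the block over the 6 GEMM libraries and 7 in a fit of those 6 alone. Log2 fold changes that changed sign when 1 library was left out ranged between −0.489 and 5.158 for Ccr3, −0.0134 and 0.952 for Apoe, −0.868 and 4.002 for Arg1, −0.161 and 0.289 for Ifit1, and −0.975 and 0.317 for Ly6c1. Of these Ccr3 was called in the full data. The median log2 fold change of all genes was 0.0068, and −0.0513 with DESeq2 and −0.082 without BMDM of 68702. Counts under about 1 CPM rest on few reads, which limits the folds of such genes.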

Other observations

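The series also holds MG from normal brain (n = 3), and their values are given beside those of GEMM tumours with no test of the difference. Several genes lower in GEMM BMDM than in GEMM MG were at low levels in those libraries. Lox averaged 1.72 ± 1.03 CPM in BMDM and 24.1 ± 6.09 CPM in MG in GEMM, against 0.481 ± 0.188 CPM in normal brain MG. C4b averaged 85.5 ± 32 CPM in BMDM and 419.89 ± 102 CPM in MG in GEMM, against 5.84 ± 4.11 CPM in normal brain MG. Ch25h and C2 were at 1.14 ± 0.37 and 1.16 ± 0.28 CPM in normal brain MG, and Adora1 at 2.8 ± 1.08 CPM. For these 5 genes, chosen after their values were seen, the GEMM BMDM mean was above the normal brain MG mean.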
